A study of Mus musculus with 14 samples.

Results

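A group of 8 genes of cholesterol synthesis and its control was followed in skeletal muscle of mice with endothelial c-Myc overexpression on control or western diet. They are Srebf2, Insig1, Hmgcs1, Idi1, Fdps, Sqle, Lss and Cyp51, taken by gene symbol from a count table and an FPKM table of 54532 genes, and all 8 passed the filter on low counts that left 15458 tested genes. The working name of the list also speaks of uptake, but none of the 8 encodes an uptake receptor, so they are called cholesterol synthesis genes here and set beside a separate list of 53 other cholesterol genes.

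Cells make cholesterol from acetyl-CoA through mevalonate, isoprenoid and sterol intermediates. The transcription factor SREBP2, encoded by Srebf2, is held in the endoplasmic reticulum by SCAP and INSIG proteins when sterols are plentiful, and is cut and sent to the nucleus when they are scarce, where it raises transcription of the enzymes. Skeletal muscle makes cholesterol for its membranes and uses other branches of the pathway for coenzyme Q and for lipid anchors of proteins.

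The mice were FVB/N males. EC-Myc OE mice (OE) carried Tet-O-Myc, a Y-linked human c-Myc transgene, together with Cdh5-tTA, in which the endothelial Cdh5 promoter drives the transactivator, and the transgene was switched on by withdrawing doxycycline at 4 to 6 weeks of age. Control littermates (CT) carried Tet-O-Myc and no transactivator. Both were fed control diet (CTD) or high-fat western diet (WD) for 20 weeks by the labels and methods, while the study's results give a shorter time, and age at collection was not given. RNA from soleus and gastrocnemius was selected with poly-T beads, and which of these muscles a library came from was not stated. The labels gave 3 libraries for CT-CTD, 3 for CT-WD, 4 for OE-CTD and 4 for OE-WD, with total counts between 21833839 and 28519159 per library. A figure legend of the study gives other group sizes, with the smaller number for both control diet groups. If the names CT-WD and OE-CTD were exchanged, the diet comparison in CT and the genotype comparison on control diet would trade names, the diet comparison in OE and the genotype comparison on western diet would trade names, and the interaction would stay as it is. The labels were used as they stand.

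The tissue was skeletal muscle by its markers. Summed over Acta1, Ckm, Des, Mb and Ttn, the level was between 65210 and 91800 in normalised counts (CPM) in all 14 libraries, with Acta1 the most abundant. The sum of 7 slow fibre genes was between 3999 and 6467 CPM and that of 8 fast fibre genes between 99440 and 142600 CPM. Tnnc2, a fast troponin gene, had only 6 to 38 counts per library, and 74.0% of its exon bases lie in exons of Ube2c on the other strand. Some libraries stood apart from their group before any comparison. Libraries OE-CTD 4 and OE-WD 4 had the highest shares of mitochondrial counts, 14.9% and 14.5%, and the lowest TMM factors, 0.8877 and 0.8992. Libraries CT-CTD 1 and CT-WD 1 had the highest sums among CT libraries of 7 adipocyte genes, 185.4 and 145.4 CPM, against 23.8 to 87.6 CPM in the other 4 CT libraries. They also had the highest sums among CT libraries of 8 epidermal genes, 42.2 and 99.5 CPM, against 6.65 to 13.9 CPM in the other 4. CT-WD 1 further had a sum of 5 fibroblast genes of 737.8 CPM, against 270.3 and 256.4 CPM in the other CT-WD libraries, and a sum of 6 macrophage genes of 93.8 CPM, against 45 and 38.9 CPM. OE-WD 2 had the highest sums of its group for 3 of these lists, 1208 CPM for fibroblast genes against 520.2 to 731.9 CPM, 96.3 CPM for macrophage genes against 55.9 to 58.3 CPM, and 109.8 CPM for adipocyte genes against 60.5 to 76.9 CPM. The sample names carry numbers whose meaning is not given: those of CT-CTD 1 and CT-WD 1 adjoin each other and lie apart from those of the other 4 CT libraries, OE-CTD 1 to 3 share 1 number, and all 4 OE-WD libraries share another. If libraries with a shared number came from 1 animal or cage, they would not be independent, which was not tested. In bulk muscle, fewer cells of a type and less RNA per cell cannot be told apart.

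Levels of the genes were compared per length on the authors' FPKM scale, as mean ± SD over 14 libraries. Hmgcs1, which encodes the synthase that makes HMG-CoA, had the highest level, 6.81 ± 0.764 FPKM, and exceeded the next gene in 14 of 14 libraries. Insig1, which encodes a sterol-regulated anchor of SCAP, and Srebf2 followed at 4.54 ± 1.25 and 3.85 ± 0.506 FPKM, and their order held in only 9 of 14 libraries, so these neighbours did not differ beyond their spread. Cyp51, encoding lanosterol demethylase, was at 1.40 ± 0.197 FPKM, and Idi1, encoding isopentenyl diphosphate isomerase, at 1.11 ± 0.236 FPKM. Sqle, encoding squalene epoxidase, and Lss, encoding lanosterol synthase, were at 0.530 ± 0.131 and 0.50 ± 0.0706 FPKM, with Sqle above Lss in 7 of 14 libraries. Fdps, encoding farnesyl diphosphate synthase, was last at 0.0768 ± 0.0462 FPKM, from 1 to 18 counts per library.

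The level of Fdps is uncertain. In GENCODE M21, 26.7% of the exon bases of Fdps (ENSMUSG00000059743, chr3:89093588-89101959, minus strand) also lie in exons of Gm43738, a protein-coding gene model on the same strand at chr3:89081939-89101099. In the transcript Fdps-201, 923 of 1059 coding bases (87.2%) are shared with Gm43738, which had 0 counts in all libraries. How the counting treated reads that lie in 2 genes was not given in the sources used here, and its part in the low Fdps count was not tested. Of the other members, Hmgcs1, Idi1, Lss and Cyp51 share 12.1%, 9.22%, 3.53% and 3.76% of their exon bases with a gene on the opposite strand, and whether counting used strand was not given either. The opposite genes had at most 4 counts in all, except Akap9 at Cyp51, which had 21196. Srebf2, Insig1 and Sqle share no exon base with another gene.

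No member passed the test in any comparison. Counts were tested in edgeR with the quasi-likelihood test, and a gene was called at a Benjamini-Hochberg adjusted p under 0.05 over all 15458 genes. In the diet comparison of CT mice, 0 of 8 members were called and 0 of 15458 genes (0.0%). In the diet comparison of OE mice, 0 of 8 were called and 1 of all genes (0.00647%). For OE-WD against CT-WD it was 0 of 8 and 112 genes (0.725%), and for OE-CTD against CT-CTD 0 of 8 and 413 genes (2.67%). For the interaction, which asks whether the diet difference depends on genotype, it was 0 of 8 and 0 genes (0.0%). At an unadjusted p under 0.05 the members numbered 1 (Fdps), 0, 1 (Insig1), 0 and 0 in the same order, against 7.28%, 4.2%, 16.9%, 15.9% and 5.92% of all genes. These counts over all genes depend on single libraries: with 1 left out they ran from 0 to 42 for diet in CT, from 0 to 2 for diet in OE, from 4 to 1499 for OE-WD against CT-WD, from 77 to 615 for OE-CTD against CT-CTD and from 0 to 1 for the interaction. DESeq2 and limma on log2 FPKM also called 0 of 8 in all 5 comparisons at an adjusted p under 0.05. With these libraries the median 95% confidence interval of a member reached 0.477, 0.415, 0.447, 0.446 and 0.632 on the log2 scale to either side of its estimate.

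**Figure D1:**
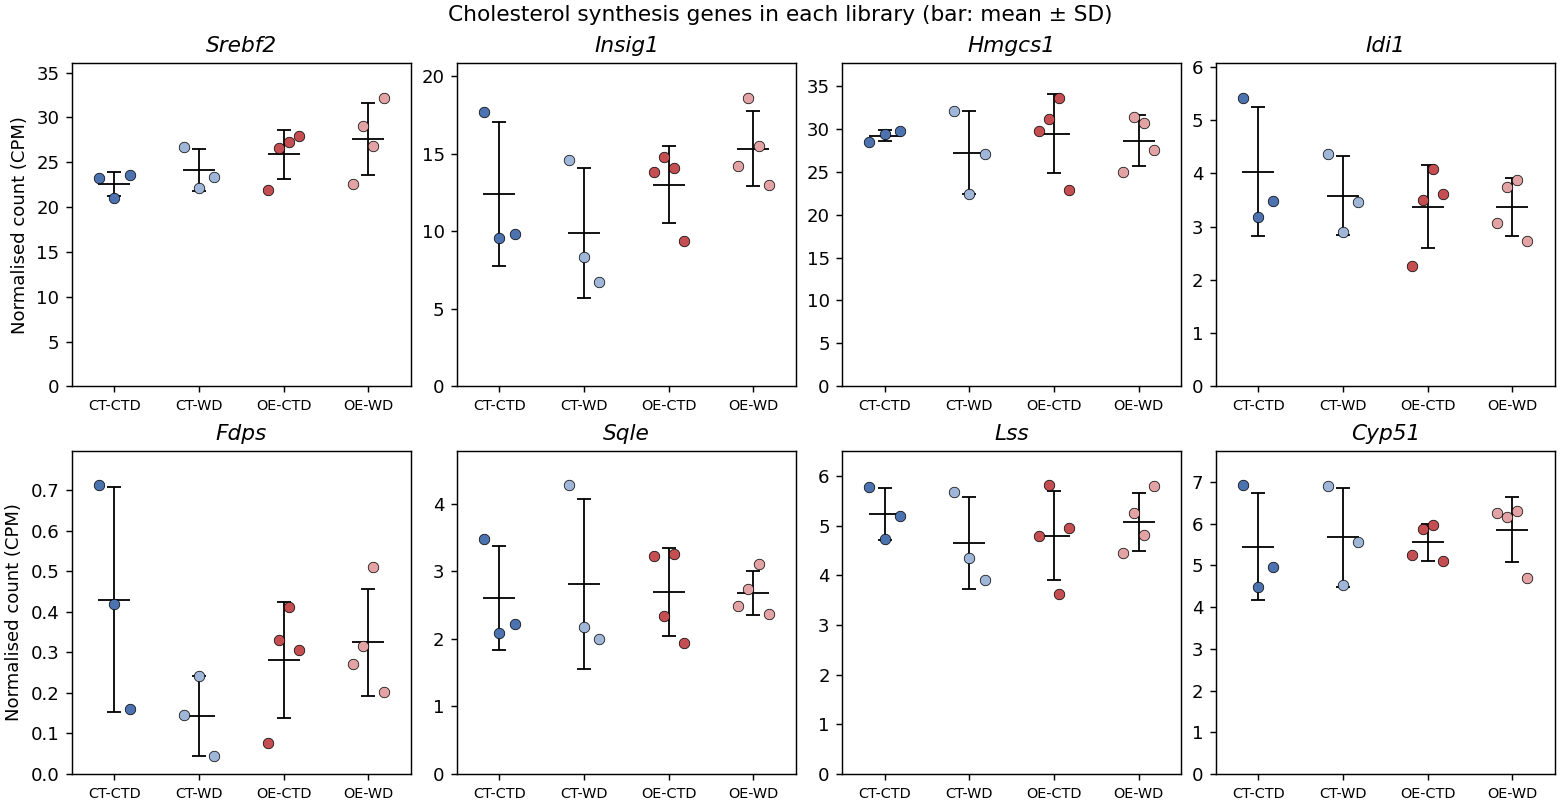
Normalised counts (CPM, linear axis from 0) of the 8 genes by group, with 1 point per library in the order of the replicate numbers and a bar for the mean ± SD. For Insig1, 2 of the 3 CT-WD libraries sit at 8.31 and 6.71 CPM, below the 4 OE-WD libraries at 13 to 18.6 CPM, and the remaining CT-WD library sits at 14.6 CPM.

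Insig1 (ENSMUSG00000045294, chr5:28071363-28078662, plus strand, GRCm38) had the lowest p of the members between OE and CT on western diet. Its normalised count was 17.7, 9.54 and 9.85 CPM in CT-CTD, and 14.6, 8.31 and 6.71 CPM in CT-WD. It was 13.8, 14.8, 14.1 and 9.34 CPM in OE-CTD, and 14.2, 18.6, 15.5 and 13 CPM in OE-WD. The libraries numbered 1 were the highest of both CT groups, the library numbered 4 was the lowest of both OE groups, and every pair of groups overlapped. For OE-WD against CT-WD the log2 fold change was 0.63 ± 0.26 (SE), with a 95% confidence interval from 0.07 to 1.19, at an unadjusted p of 0.0305 and an adjusted p of 0.245 in edgeR. The value depended on single libraries in both directions. Without CT-WD 1, whose adipocyte, epidermal, fibroblast and macrophage sums were the highest of its group, the log2 fold change was 1.03 ± 0.26 and the adjusted p 0.0231 in edgeR. In that fit 1499 of all tested genes (9.47%) were called. Without CT-WD 3 the log2 fold change was 0.41 ± 0.27 with an adjusted p of 0.660 in edgeR, and without CT-WD 2, CT-WD 3, OE-WD 2 or OE-WD 3 the unadjusted p was not under 0.05. OE-WD 2, the highest in Insig1, also had the highest fibroblast, macrophage and adipocyte sums of its group. Without both CT libraries numbered 1 the log2 fold change was 1.03 ± 0.20 with an adjusted p of 0.00652 in edgeR; leaving out both was decided only once the values were known. The part of other cell types in this difference was not tested. In the other comparisons the log2 fold change of Insig1 was -0.32 ± 0.28 for diet in CT, 0.23 ± 0.24 for diet in OE, 0.08 ± 0.26 for genotype on control diet and 0.55 ± 0.37 for the interaction, with adjusted p-values between 0.892 and 1.0 in edgeR. With 1 library left out in turn, the interaction ran from 0.20 without CT-CTD 1 to 0.95 without CT-WD 1. With the replicate number as a block, the diet value in CT was -0.34 ± 0.12 with an adjusted p of 0.294 in edgeR. Insig1 then joined Fdps at an unadjusted p under 0.05, and 13 of all genes were called in place of 0.

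Srebf2 (ENSMUSG00000022463, chr15:82147181-82205379, plus strand) varied little. It was at 23.2, 21.0 and 23.6 CPM in CT-CTD, 26.7, 22.1 and 23.4 CPM in CT-WD, 21.9, 26.6, 27.3 and 27.9 CPM in OE-CTD and 22.6, 29.0, 26.8 and 32.2 CPM in OE-WD. The group means were 22.6 ± 1.36, 24.1 ± 2.36, 25.9 ± 2.75 and 27.6 ± 4.0 CPM (SD, n = 3, 3, 4 and 4), and the groups overlapped. The log2 fold change of OE against CT was 0.20 ± 0.12 on western diet and 0.20 ± 0.12 on control diet, with adjusted p-values of 0.433 and 0.465 in edgeR. For diet it was 0.09 ± 0.13 in CT and 0.09 ± 0.11 in OE.

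An intron of Srebf2 holds the gene of miR-33, which is known to repress cholesterol efflux genes. None of the hairpin's bases, chr15:82198122-82198190 on the plus strand of GRCm38.p6 in RefSeq, lies in a Srebf2 exon. It had 0 counts, in libraries made from poly-T selected RNA, which does not capture mature microRNAs. Its mature form is shown because it is the second product of this locus, with the seed, bases 2 to 8, in capitals.
mmu-miR-33-5p: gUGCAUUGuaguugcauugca

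Hmgcs1 and Idi1 act before squalene, and both had group ranges that overlapped in every comparison. Hmgcs1 (ENSMUSG00000093930, chr13:119690379-119708260, plus strand) was at 29.2 ± 0.598 CPM in CT-CTD and 27.2 ± 4.83 CPM in CT-WD (SD, n = 3 each), and at 29.4 ± 4.58 CPM in OE-CTD and 28.6 ± 2.94 CPM in OE-WD (SD, n = 4 each). Its log2 fold changes in the 4 comparisons of groups were between -0.10 and 0.07. Idi1 (ENSMUSG00000058258, chr13:8885501-8892451, plus strand) was between 2.26 and 5.42 CPM, and its log2 fold changes in the same comparisons were between -0.26 and -0.00115, each with a 95% confidence interval that included 0. Its paralogue Idi2 had 3 counts over all libraries and was not tested.

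Fdps had the only unadjusted p under 0.05 in the diet comparison of CT mice, on few reads. Its counts were 18, 10 and 4 in CT-CTD, 4, 5 and 1 in CT-WD, 2, 10, 10 and 6 in OE-CTD, and 7, 9, 12 and 5 reads in OE-WD. The CT groups overlapped. The log2 fold change was -1.57 ± 0.71 (SE), with a 95% confidence interval from -3.08 to -0.05, at an unadjusted p of 0.0437 and an adjusted p of 0.670 in edgeR. Without CT-CTD 1, the library with 18 reads, it was -1.0 ± 0.80 with an adjusted p of 0.815 in edgeR. The unadjusted p was not under 0.05 in 8 of the 14 fits with 1 library left out. In the other comparisons the log2 fold change of Fdps was 0.20 ± 0.57 for diet in OE, 1.16 ± 0.69 for genotype on western diet, -0.61 ± 0.60 for genotype on control diet and 1.77 ± 0.92 for the interaction, with adjusted p-values between 0.424 and 1.0 in edgeR. With 1 library left out in turn, genotype on western diet ran from 0.76 to 1.67 and genotype on control diet from -1.0 to -0.04. The interaction ran from 1.2 to 2.28.

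The sterol branch members also had overlapping group ranges in every comparison. Sqle (ENSMUSG00000022351, chr15:59315077-59331192, plus strand) was at 3.48, 2.09 and 2.22 CPM in CT-CTD and 4.27, 2.17 and 2.0 CPM in CT-WD, and between 1.94 and 3.26 CPM in the OE libraries. As for Insig1, the libraries numbered 1 were the highest of both CT groups. The log2 fold changes of Sqle in the 4 comparisons of groups were between -0.09 and 0.13. Those of Lss (ENSMUSG00000033105, chr10:76531588-76557138, plus strand) were between -0.17 and 0.12, and those of Cyp51 (ENSMUSG00000001467, chr5:4081145-4104746, minus strand) between 0.03 and 0.08. For these enzymes every 95% confidence interval included 0.

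**Figure D2:**
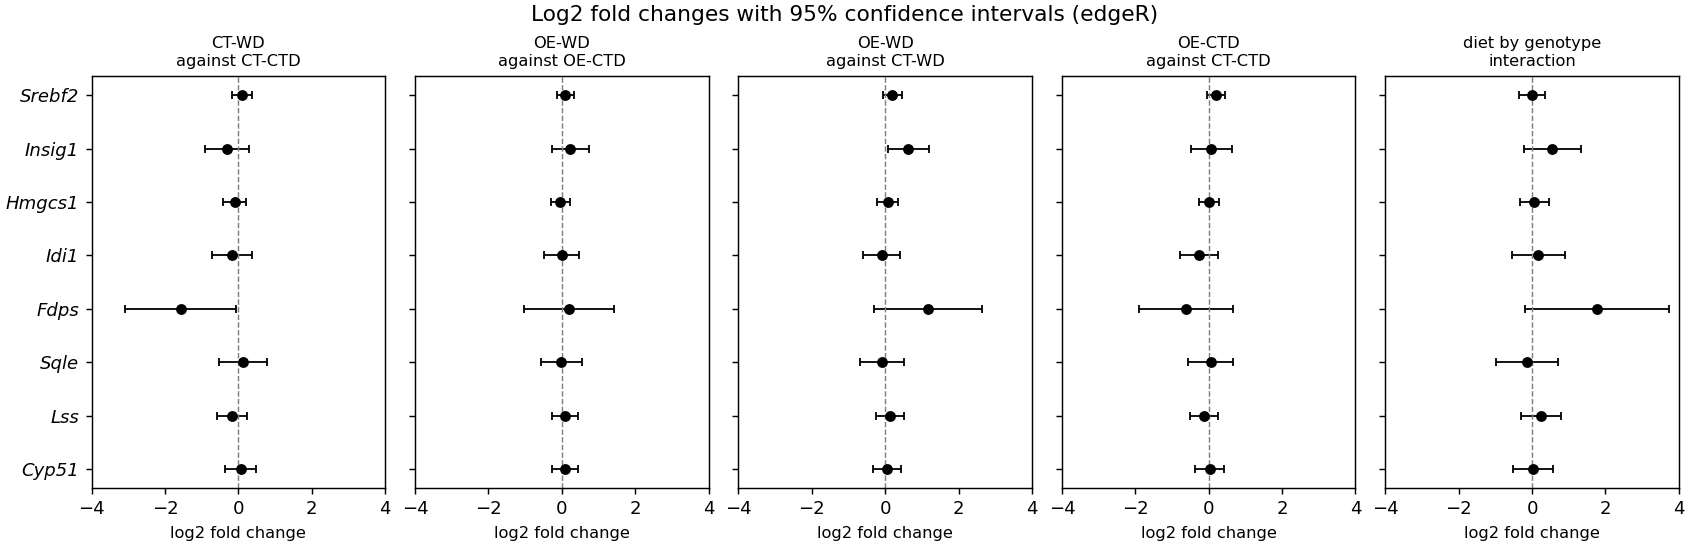
Log2 fold changes of the 8 genes (horizontal axis) in the 5 comparisons, with points for the edgeR estimate and bars for its 95% confidence interval. The interval excludes 0 for Fdps in the diet comparison of CT mice, -3.08 to -0.05, and for Insig1 between OE-WD and CT-WD, 0.07 to 1.19, and includes 0 for the remaining values.

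The members were set beside all genes by median, without a test of the difference. Their median log2 fold change was -0.134 for diet in CT, with 5 of 8 below 0, against 0.0071 over all genes. It was 0.0776 for diet in OE (5 of 8 above 0) and 0.0979 for genotype on western diet (6 of 8). It was 0.0183 for genotype on control diet (5 of 8) and 0.114 for the interaction (6 of 8). Over all genes these medians were 0.00484, 0.00556, -0.000702 and -0.00567. Values of single members moved when CT-WD 1 was left out. Hmgcs1, Sqle, Idi1, Insig1, Lss and Cyp51 were then at -0.24, -0.32, -0.34, -0.72, -0.34 and -0.11 for diet in CT, and Srebf2 at 0.011. For genotype on western diet the same 6 were at 0.21, 0.36, 0.075, 1.03, 0.30 and 0.21. Leaving out another CT-WD library gave some of them the other sign. Without CT-WD 2, Hmgcs1 was at 0.018 for diet in CT. For genotype on western diet, Hmgcs1, Idi1 and Cyp51 were then at -0.046, -0.23 and -0.091. Without CT-WD 3, Sqle was at -0.28 for genotype on western diet. Comparisons of the same groups share libraries, so these values are not independent of each other.

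The members varied from library to library within groups. As a description over the 14 libraries, which share depth and scaling, log2 CPM was correlated between members in 28 pairs. The median Pearson correlation was 0.325, with a range from 0.11 to 0.73, and 7 pairs were above 0.5. The pairs with the highest Pearson values were Sqle with Cyp51 (Pearson 0.73, Spearman 0.74), Sqle with Insig1 (0.72 and 0.75) and Idi1 with Cyp51 (0.69 and 0.72), while Insig1 with Cyp51 had the highest Spearman value, 0.78 (Pearson 0.68). With each value taken as its deviation from the group mean, Sqle and Insig1 reached 0.89. Without both CT libraries numbered 1, a choice made after the data were seen, the median was 0.30 and the range -0.21 to 0.75, from Idi1 with Lss to Sqle with Insig1. There 4 of the 28 pairs were below 0, among them Sqle with Idi1, which went from 0.42 to -0.01. Over all 14 libraries, the Pearson correlation of deviations from group means was also averaged over the pairs of each member. It was lowest for Lss (0.23), Srebf2 and Fdps (each 0.25) and highest for Insig1 (0.55).

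The mean of the members' log2 CPM, each centred on its own mean, was highest in CT-CTD 1 (0.40) and lowest in CT-WD 3 (-0.40). Both extremes lean on Fdps, which had 18 reads and 1 read there and centred values of 1.23 and -1.43, so neither the order of the libraries nor the group means can be read as that of all members. The OE libraries lay between -0.19 and 0.23. Its group means were 0.05 ± 0.30 for CT-CTD, -0.16 ± 0.30 for CT-WD, 0.00 ± 0.17 for OE-CTD and 0.09 ± 0.15 for OE-WD (SD). The sum of adipocyte genes was highest in CT-CTD 1 and lowest in CT-WD 3, with Cfd the most abundant and no gene of the list at 0 in any library. The sum of epidermal genes, with Krt5 the most abundant, was highest in OE-WD 3 (134.4 CPM), CT-WD 1 (99.5 CPM) and OE-WD 2 (89.5 CPM) and lowest in OE-CTD 4 (5.21 CPM), where 4 of its 8 genes were at 0. Their part in the members' variation was not tested.

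**Figure D3:**
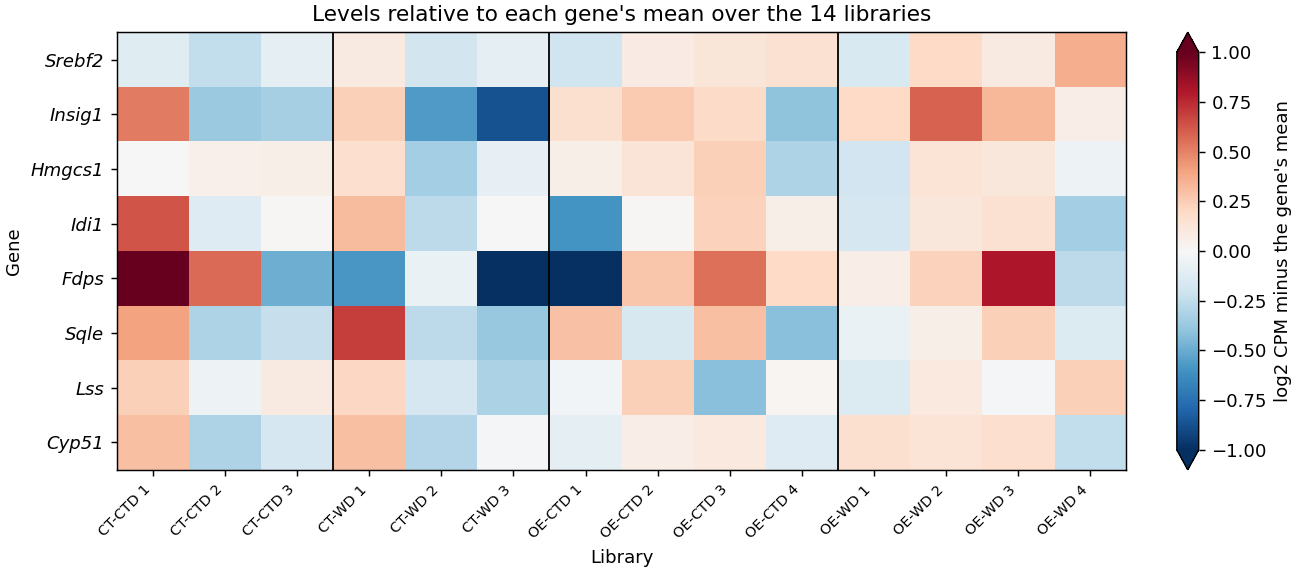
Log2 CPM of the 8 genes minus each gene's mean over the 14 libraries (colour, from -1 to 1, with values beyond shown at the end colours), with libraries in columns by group and vertical lines between groups. Insig1 ranges from -0.87 in CT-WD 3 to 0.59 in OE-WD 2, and Srebf2 from -0.25 in CT-CTD 2 to 0.36 in OE-WD 4.

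Outside the gene lists, the 8 genes whose log2 CPM followed the members' mean most closely over the 14 libraries were Car5b (Pearson 0.91), Ltbp2, Pygl, Sept3 and Hltf (each 0.90), Paqr7 and Gm4841 (each 0.88), and Slc1a5 (0.87). Sept3 is given in the deposited table as a date. Genes inside the lists reached up to 0.95. This mean also holds Fdps, and likeness to a mean without it was not tested.

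In the reported test, the remaining genes of the pathway gave 2 calls. Of 53 other genes of cholesterol synthesis, control, transport and efflux, 50 were tested, and the others, among them Idi2, had too few counts. In OE-CTD against CT-CTD, 0 of 50 rose and 2 fell, beside 2.67% called of all genes. The first, Hsd17b7, encodes a reductase of the later sterol steps. It was at 17.9, 21.4 and 24.7 CPM in CT-CTD and 8.40, 10, 6.72 and 10.8 CPM in OE-CTD, so that all 4 OE-CTD libraries lay below all 3 CT-CTD libraries. Its log2 fold change was -1.25 ± 0.21 (SE), with an adjusted p of 0.00704 in edgeR. On western diet the difference was -0.48 ± 0.21 with an adjusted p of 0.255 in edgeR, and the interaction, at 0.76 ± 0.30, had an adjusted p of 0.834. The second, Vldlr, encodes a lipoprotein receptor. It was at 251.0, 302.3 and 203.1 CPM in CT-CTD and 162.9, 166.6, 154.0 and 194.6 CPM in OE-CTD, without overlap, with a log2 fold change of -0.57 ± 0.13 and an adjusted p of 0.0338 in edgeR. Leaving out 1 of 5 libraries in turn (CT-CTD 1, CT-CTD 2, OE-CTD 1, OE-CTD 2 or OE-CTD 3) ended the Vldlr call, with adjusted p-values between 0.0659 and 0.185. In the other 4 comparisons 0 of 50 were called. These counts depended on the setting. With 1 library left out in turn they ran from 0 to 11 for OE-WD against CT-WD. For OE-CTD against CT-CTD they ran from 1 to 4, and both were highest without CT-WD 1. With the replicate number as a block 0 of 50 were called in each comparison. Hsd17b7 and Vldlr then had adjusted p-values of 0.0842 and 0.0874 in edgeR. At an unadjusted p under 0.05, 0 of the 50 were higher and 4 lower with diet in CT, 2 higher and 1 lower with diet in OE, 9 higher and 4 lower for OE-WD against CT-WD, and 7 higher and 5 lower for OE-CTD against CT-CTD, with 5 positive and 0 negative interactions. The shares of all genes at that p were 7.28%, 4.2%, 16.9%, 15.9% and 5.92%.

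Other genes of the list were named for their small p-values, among them Mvd, which encodes the last enzyme before isopentenyl diphosphate, and Erlin2, a partner in the breakdown of sterol-sensing proteins. For OE-WD against CT-WD, Erlin2 had a log2 fold change of 0.52 ± 0.12 with an adjusted p of 0.0612 and Mvd one of 0.65 ± 0.16 with an adjusted p of 0.0735 in edgeR, without overlap between the groups. Each passed in the same 4 of 23 other settings, among them without CT-WD 1, where Erlin2 had an adjusted p of 0.0119 in edgeR. For diet in CT, Mvd was at -0.59 ± 0.17 and Erlin2 at -0.39 ± 0.13, with adjusted p-values of 0.484 and 0.555 in edgeR. For diet in OE the smallest p-values belonged to Hsd17b7 (0.54 ± 0.20 on the log2 scale), Fdft1 (-0.22 ± 0.09) and Scarb1 (0.27 ± 0.11), each at an adjusted p of 1.0 in edgeR. For OE-CTD against CT-CTD, Lrp1 was at 0.81 ± 0.23 with an adjusted p of 0.0842 in edgeR, and it passed in 6 of 23 other settings, among them without CT-WD 1, at 0.0237. For the interaction, Erlin2 and Rnf139 were at 0.54 ± 0.17 and 0.27 ± 0.10, each at an adjusted p of 0.825 in edgeR.

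The lipogenic genes of the related factor SREBP1 were set beside the members. In OE-WD against CT-WD, 2 of 11 rose and 0 fell, beside 0.725% called of all genes. Srebf1, which encodes SREBP1, was at 80.6, 58.5 and 40.5 CPM in CT-WD and 103.9, 115.9, 111.9 and 119.6 CPM in OE-WD, with a log2 fold change of 0.91 ± 0.16 and an adjusted p of 0.0282 in edgeR. Scd2, a stearoyl-CoA desaturase gene, was at 40.2, 20.3 and 18.3 CPM in CT-WD and 48.8, 71.3, 56.4 and 67.8 CPM in OE-WD, with a log2 fold change of 1.21 ± 0.23 and an adjusted p of 0.0322 in edgeR. Both calls were lost when 1 of several libraries was left out. For Srebf1 these were CT-WD 2, CT-WD 3, OE-WD 2, OE-WD 3 and OE-WD 4, with adjusted p-values between 0.0683 and 0.0945, and for Scd2 these and OE-CTD 2, with adjusted p-values between 0.0516 and 0.142. For diet in CT, Srebf1 was at -0.59 ± 0.17 with an adjusted p of 0.471 in edgeR, and 0.0158 without CT-WD 1. Its interaction was 0.73 ± 0.22 with an adjusted p of 0.825 in edgeR. In the other 4 comparisons 0 of 11 were called. Adipocyte genes lay on the same side of 0 as this list. For diet in CT, 11 of 11 lipogenic genes (median log2 fold change -0.594) and 7 of 7 adipocyte genes (-0.875) were below 0, and for OE-WD against CT-WD 10 of 11 (0.404) and 6 of 7 (0.70) were above 0. The part of adipocytes in these values was not tested.

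Genes of other lists were called in the same comparisons, where 0.725% of all genes were called for OE-WD against CT-WD and 2.67% for OE-CTD against CT-CTD. Of 9 endothelial genes, 1 rose in OE-WD against CT-WD (Cdh5) and 1 in OE-CTD against CT-CTD (Tek), and in each of these 5 of 9 were higher at an unadjusted p under 0.05. The endothelial sum, with Cdh5 the most abundant, was 365.1 to 373.0 CPM in CT-CTD and 404.7 to 474.3 CPM in OE-CTD. It was 389.7 to 439.5 CPM in CT-WD and 467.5 to 494.6 CPM in OE-WD, so that neither pair of groups overlapped. Of 9 clock genes chosen for the phase of Dbp, which leave out those of the opposite phase, 4 rose in OE-WD against CT-WD, while in OE-CTD against CT-CTD 2 rose and 1 fell, with sums between 642.2 CPM in CT-WD 3 and 1066 CPM in OE-WD 4. Hour of collection was not given in the sources used here. Of the fibroblast, macrophage, Schwann cell, adipocyte and epidermal lists 0 genes were called in any comparison, with sums of 238.1 to 1208, 31.0 to 98.9, 124.3 to 364.6, 23.8 to 185.4 and 5.21 to 134.4 CPM. Yet in OE-CTD against CT-CTD all 5 fibroblast genes (median log2 fold change 0.869, smallest adjusted p 0.0526 in edgeR) and 5 of 6 macrophage genes (0.84, 0.149) were higher at an unadjusted p under 0.05. The fibroblast sum, with Dcn the most abundant, was 340.6, 273.5 and 238.1 CPM in CT-CTD and 665.8, 792.7, 717.1 and 460.3 CPM in OE-CTD, without overlap. In OE-WD against CT-WD, 2 of 5 fibroblast and 0 of 6 macrophage genes were at that p. Of 7 slow fibre genes 0 were called in any comparison. In OE-CTD against CT-CTD all 7 were above 0 (median log2 fold change 0.273, smallest adjusted p 0.0881 in edgeR), with 3 higher at that p. In OE-WD against CT-WD 2 of 7 were above 0, and these 2 were at that p. Of 8 fast fibre genes 1 was lower at that p in each of these comparisons. The shares of all genes at that p were 16.9% for OE-WD against CT-WD and 15.9% for OE-CTD against CT-CTD. The part of these lists in the values of the members was not tested. Mouse Myc was between 3.06 and 13.3 CPM and was not called, with log2 fold changes of OE against CT of -0.49 ± 0.30 on western diet and 0.16 ± 0.32 on control diet. With 1 library left out in turn, these ran from -0.78 to -0.10 and from 0.05 to 0.35. The transgene is human, and whether its reads count toward this gene was not tested.

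RefSeq promoter windows, 250 bases before to 50 after the gene start on GRCm38.p6, were given for 6 of 8 members: Srebf2, Hmgcs1, Idi1, Insig1, Lss and Cyp51. Each was searched on both strands for TCACNCCAC, the core of a sterol regulatory element, for the CCAAT box, for the E-box CACGTG, and for the GC box GGGCGG. TCACNCCAC was found in 1 of the 6, Hmgcs1, and in 1.24% of all 32851 windows. CCAAT was found in 6 of 6 and in 37.4% of all windows, GGGCGG in 6 of 6 and in 35.7%, and CACGTG in 1 of 6, Insig1, and in 7.15%. A match describes letters and is no evidence of binding. The windows of Hmgcs1, at chr13:119690101-119690400, and Insig1, at chr5:28071162-28071461, both on the plus strand, are shown because they hold the motifs found in a single member. Capitals mark TCACNCCAC, the E-box and the CCAAT box on either strand, and none of these matches overlaps another.
Hmgcs1: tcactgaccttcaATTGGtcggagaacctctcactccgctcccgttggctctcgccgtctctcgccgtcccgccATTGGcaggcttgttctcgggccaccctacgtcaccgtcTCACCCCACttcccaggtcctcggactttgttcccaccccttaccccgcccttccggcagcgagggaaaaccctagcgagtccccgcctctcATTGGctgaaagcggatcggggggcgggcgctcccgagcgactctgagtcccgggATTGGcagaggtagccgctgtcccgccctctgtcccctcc
Insig1: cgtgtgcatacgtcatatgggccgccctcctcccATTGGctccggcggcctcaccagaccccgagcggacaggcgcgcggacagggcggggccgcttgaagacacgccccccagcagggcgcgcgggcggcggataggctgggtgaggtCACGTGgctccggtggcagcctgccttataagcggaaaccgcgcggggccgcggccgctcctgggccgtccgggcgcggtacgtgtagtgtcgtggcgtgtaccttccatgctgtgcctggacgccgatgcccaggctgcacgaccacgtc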

How the data were processed

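RNA-seq was analysed in 14 libraries of mouse muscle, grouped by their labels. The authors deposited counts, reads per Ensembl gene without normalization, and the authors deposited FPKM, counts per gene length and library total. The submitters' processing notes name HISAT2 2.0.5, featureCounts 1.5.0-p3 and mm10; options and strand setting were not given in the sources used here. Of 54409 identifiers shared with GENCODE M21 (GRCm38), 53499 had the same position.

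The test of counts was that of edgeR 4.0.16, run in R 4.3.3 (TMM, filterByExpr, quasi-likelihood test, 1 model of 4 groups), with Benjamini-Hochberg adjustment over 15458 genes within each of 5 comparisons. CPM values are TMM-normalised, and log2 CPM used a prior count of 2. DESeq2 1.42.0, limma 3.58.1 on log2(FPKM + 1) and log2(FPKM + 0.1), RLE factors, no filter, models of 2 groups, a replicate block and leaving out each library were alternatives. The fitting was tested on simulated data. The biological coefficient of variation was 17%, with total counts of 21833839 to 28519159 per library. No source says that libraries came from separate animals, so p-values measure the spread between these libraries.

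Within groups, pairs of libraries differed by a chi-square of 7.756 to 50.33 for each degree of freedom, so none was a duplicate. OE-CTD 1 to 3, whose sample names share a number, were at 7.756 to 10.48 with each other and at 36.32 to 42.44 with OE-CTD 4, and CT pairs were at 16.47 to 50.33. OE-WD 1 to 3 were at 8.463 to 15.1 with each other and at 38.41 to 42.36 with OE-WD 4, though all 4 names share a number. Deviations from group means of same-numbered CT libraries correlated at 0.385, 0.123 and 0.203, each over 0.1. The differently numbered CT-CTD 2 and CT-WD 3 correlated at 0.142, above CT-CTD 2 with CT-WD 2 at 0.123. From this check alone, the numbers were taken to pair CT-WD with CT-CTD. The reported test has no block. Blocked values of this comparison stand beside a result where they move a count, as does the blocked count of the other cholesterol genes. All others are in the sensitivity section.

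The members and gene lists were chosen with earlier results of these data known. Named are all members, Idi2 and Myc, listed genes that passed in a comparison or had 1 of its 3 smallest p-values, and the 8 unlisted genes most like the members' mean (mean CPM of at least 1). Cdh5 and Tek were named because they are the endothelial markers that passed. Some other genes of this rule are not reported here.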

Additional observations from a re-analysis of the deposited data

Results flagged for a closer look

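In 1 of 16 tests of a group of 4 libraries for a library far from the others (8 genes in OE-CTD and OE-WD), Cyp51 in OE-WD was set apart: OE-WD 4 was at 4.70 CPM and the other 3 libraries were at 6.17 to 6.30 CPM. Chance gives about 1 in 20 such groups. OE-WD 4 also had a mitochondrial share of 14.5% and a TMM factor of 0.8992; the part of these in the value was not tested. Groups of 3 were not tested in this way. The interaction was called for 0 of 8 members at an adjusted p under 0.05 in edgeR, with 0 at an unadjusted p under 0.05.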

How the results depend on the processing

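The number of members called stayed at 0 of 8 in all 5 comparisons under RLE factors, DESeq2, no filter and both limma fits. In the models of 2 groups, which were not run for the interaction, it was 0 in all 4 comparisons of groups, of 7 members in 3 of them because Fdps was filtered out. With the replicate block it was also 0 in each comparison; the block moved no call of a member at an adjusted p under 0.05. At an unadjusted p under 0.05, Insig1 was added for diet in CT, diet in OE (0.24 on the log2 scale, adjusted p 0.539 in edgeR) and, with Fdps, the interaction (0.58, adjusted p 0.264 in edgeR). Calls over all genes went from 0, 1, 112, 413 and 0 to 13, 2, 1, 14 and 1. In the same order they were 0, 1, 109, 408 and 0 with RLE factors, 35, 1, 573, 799 and 9 in DESeq2, 93, 5, 560, 760 and 29 without the filter, 0, 1, 48, 230 and 0 in limma with a pseudocount of 1, and 0, 1, 38, 260 and 0 with 0.1. Models of 2 groups gave 0, 1, 4 and 596. Same-numbered OE libraries of the diet comparison correlated at 0.0711, 0.138, 0.142 and 0.338 and those of the genotype comparisons at values down to -0.23, so there the numbers are shared and nothing more, and not every library correlated best with its own number. Leaving out 1 library in turn gave between 0 and 1 member for OE-WD against CT-WD (Insig1, without CT-WD 1, where 1499 of all tested genes or 9.47% were called) and 0 elsewhere. Leaving out both CT libraries numbered 1, chosen after seeing the data, gave 1 member (Insig1) there, with 1680 of all tested genes (10.7%), and leaving out both OE libraries numbered 4, likewise, gave 0. Why these libraries matter was not tested beyond the marker sums given.

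With the block, Hsd17b7 and Vldlr (OE-CTD against CT-CTD) had adjusted p-values of 0.0842 and 0.0874, and Srebf1 and Scd2 (OE-WD against CT-WD) of 0.238 and 0.255, in edgeR. In models of 2 groups Srebf1 and Scd2 had 0.158 each, and without both OE libraries numbered 4, 0.0803 and 0.0856. In limma, Vldlr had 0.0665 and 0.0623. Some other genes passed only in other settings. Srebf1 did for diet in CT without the filter (0.0346) and without both CT libraries numbered 1 (0.0428). Erlin2 did for OE-WD against CT-WD in DESeq2 (0.00923), without the filter (0.0323) and without both CT libraries numbered 1 (0.0133). Lrp1 did for OE-CTD against CT-CTD in DESeq2 (0.0126), without the filter (0.00183), in the model of 2 groups (0.0126), without both CT libraries numbered 1 (0.0299) and without both OE libraries numbered 4 (0.0495).

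Of the 40 member values, 24 changed sign in at least 1 of 23 settings, and 22 of these lay within 1 SE of 0 to begin with; for those that reversed, the cause was not tested. On the log2 scale, the signs that changed were as follows. Without the filter, the interaction of Srebf2 was 0.0019. In limma with a pseudocount of 1, the interaction was 0.0029 for Srebf2, genotype on control diet -0.0015 for Hmgcs1, and diet in OE 0.0019 for Sqle and 0.0039 for Idi1. With a pseudocount of 0.1 these were 0.00082, -0.0032, 0.015 and 0.015, and genotype on western diet was 0.00092 for Sqle. With the replicate block, diet in OE was 0.009 for Sqle and 0.015 for Idi1, and genotype on western diet 0.045 for Sqle and 0.0021 for Idi1. Without both CT libraries numbered 1, the interaction was 0.064 for Srebf2, 0.037 for Sqle and -0.0205 for Cyp51, diet in CT -0.048 for Sqle, diet in OE 0.0012 for Idi1, genotype on western diet 0.36 for Sqle and 0.078 for Idi1, and genotype on control diet -0.0053 for Hmgcs1 and 0.010 for Idi1. Without both OE libraries numbered 4, the interaction of Hmgcs1 was -0.0195 and diet in OE 0.12 for Idi1.

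With 1 library left out in turn, diet in CT ranged from -0.24 to 0.018 for Hmgcs1, -0.32 to 0.38 for Sqle, -0.34 to 0.097 for Idi1, -0.72 to 0.025 for Insig1 and -0.11 to 0.26 for Cyp51. Diet in OE ranged from -0.14 to 0.037 for Hmgcs1, -0.13 to 0.095 for Sqle, -0.15 to 0.11 for Idi1, -0.11 to 0.45 for Fdps, -0.030 to 0.19 for Lss and -0.028 to 0.295 for Myc. Genotype on western diet ranged from -0.046 to 0.21 for Hmgcs1, -0.28 to 0.36 for Sqle, -0.23 to 0.075 for Idi1 and -0.091 to 0.21 for Cyp51. Genotype on control diet ranged from -0.063 to 0.11 for Hmgcs1, -0.080 to 0.31 for Sqle, -0.41 to 0.0040 for Idi1, -0.077 to 0.42 for Insig1 and -0.096 to 0.23 for Cyp51. The interaction ranged from -0.081 to 0.085 for Srebf2, -0.057 to 0.20 for Hmgcs1, -0.40 to 0.30 for Sqle, -0.105 to 0.34 for Idi1 and -0.19 to 0.19 for Cyp51.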
